A study of Mus musculus with 24 samples.

Results

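The 6 libraries described here, of 24 in the series, came from mouse CGR8 embryonic stem cells (ESCs) that received an siRNA pool against Rsl24d1 and were then differentiated with 10 nM retinoic acid (RA) for 4 days. They were chosen by their labels alone. In 3 of them ectopic RSL24D1 was induced with doxycycline (the rescue, labelled RSL24D1_OE), and in the other 3 no doxycycline was given (labelled empty_vector). The ectopic gene sits on a doxycycline-inducible piggyBac vector, per the methods of the study. The labels of both groups carry the same cell line, the same siRNA, FBS and RA, and those of the ESCs FBS and LIF. Whether LIF was also present during differentiation is given differently by the design text (present) and the methods (absent). The comparison asks what the ectopic protein changed once the knocked-down cells had been differentiating for 4 days. As references, 6 day 4 libraries of cells with the control siRNA (si-CTL) and 6 day 0 libraries of ESCs with the Rsl24d1 siRNA, 3 without and 3 with rescue in each case, were compared in the same way. Doxycycline itself, the vector and the ectopic protein cannot be told apart in any of these comparisons.

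RSL24D1 is the mammalian counterpart of yeast Rlp24, a protein that joins the precursor of the large (60S) ribosomal subunit in the nucleus and leaves it in the cytoplasm, where the ribosomal protein RPL24 takes its place. Pluripotent cells make many ribosomes, and their exit from pluripotency is sensitive to ribosome supply. RA drives that exit through nuclear receptors (RARs), which bind DNA repeats in genes such as Rarb and Cyp26a1 and switch on Hox genes in sequence.

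Levels are log2(TPM + 1) as deposited, where TPM is the length-corrected share of a transcript in its library. They hold no read counts, so depth is unknown, and each group mean rests on 3 libraries. Nothing in the labels says whether these came from separate cultures, so p-values measure the spread between libraries only. Of 54242 gene symbols, 16447 with a mean of at least 0.5 were tested with limma. Its standard errors and p-values use a spread for each gene estimated over all 24 libraries, not over the compared groups alone. With only the 6 libraries described here in the fit, 250 genes in place of 1732 had an adjusted p below 0.05. List counts were not made on that basis. Calls of differential expression needed an adjusted p under 0.01 together with a fold above 1.8, which is 0.848 in log2, and "rose" and "fell" are used of genes with an adjusted p below 0.05. Changes are given as rescue minus no rescue on the log2(TPM + 1) scale, which understates changes of genes with low TPM.

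One of the 3 unrescued libraries stood apart. Ribosomal protein genes took 21% of the TPM in unrescued replicate 1 against 18.4% and 18% in the other unrescued libraries and 19.1% to 19.6% in the rescued ones. Its median level relative to the series was 0.004 on the log2 scale, against 0.146 and 0.127 in the other unrescued libraries and 0.009 to 0.023 in the rescued ones. Counts of genes in the rescue comparison are therefore also given without it and after median-of-ratios scaling, a rescaling that sets typical genes equal between libraries. Levels of genes and means of lists are unscaled throughout. The median level was -0.102 to -0.047 in the si-CTL libraries without rescue at day 4, so levels set beside si-CTL carry this offset.

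Rsl24d1 RNA was higher with rescue, by a small margin. It read 6.50, 6.61 and 6.66 in the unrescued libraries and 7.08, 7.05 and 7.00 in the rescued ones, so the groups did not overlap. Over all genes tested, 5.4% had all rescued libraries above all unrescued ones and 18.6% had them all below, which is the background for every statement on overlap between these groups. The difference was 0.46 ± 0.07 (SE, n = 3 and 3; 95% interval 0.31 to 0.60; adjusted p = 3.23e-04, limma), or 1.37-fold in mean TPM. Rsl24d1 lies on chromosome 9 from 73113426 to 73123333 (GRCm38), and its symbol does not separate endogenous from ectopic RNA.

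**Figure D1:**
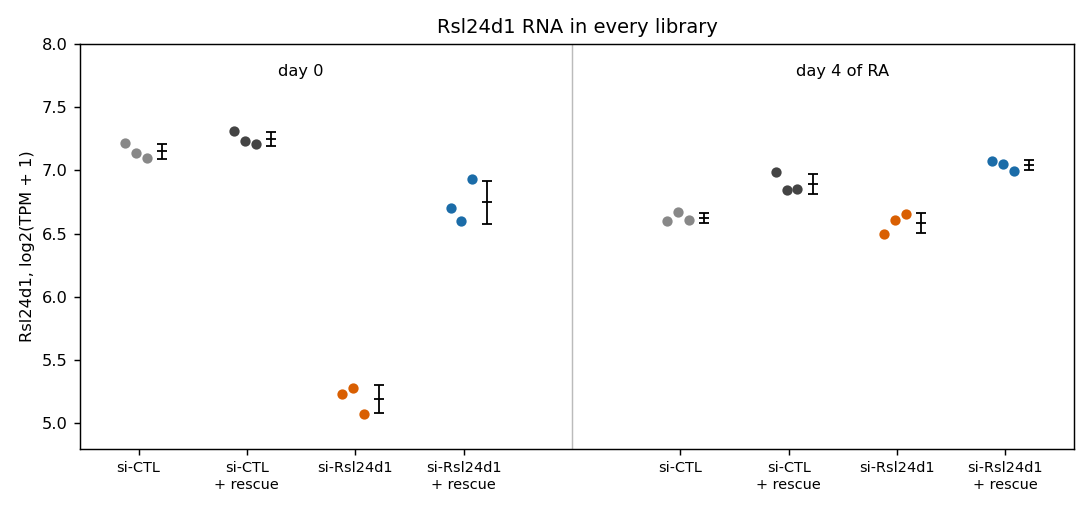
Level of Rsl24d1, log2(TPM + 1), in each of the 24 libraries (points), with mean ± SD of each group of 3 (bars). At day 4 both rescue groups sit above both groups without rescue, and the si-Rsl24d1 libraries without rescue sit at the level of si-CTL.

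The targeted transcript does not check the siRNA label at day 4. The unrescued libraries labelled siRSL24D1 averaged 6.59 and those labelled siControl 6.63 (difference -0.04, exact two-sided permutation p = 0.5, where 0.1 is the smallest p that 3 against 3 allows). At day 0 the same labels differed, with means of 5.20 and 7.15. The rescue moved Rsl24d1 by 1.55 at day 0 and by 0.46 at day 4, and this difference between days was past the threshold (-1.10 ± 0.10, adjusted p = 1.20e-06, limma). In si-CTL cells at day 4, where unrescued libraries read 6.60, 6.67 and 6.61 and rescued ones 6.99, 6.84 and 6.85, the rise was 0.27 (adjusted p = 1.08e-02). The difference between siRNAs, 0.19, did not pass (adjusted p = 1.56e-01), whereas after scaling it was 0.40 (adjusted p = 1.86e-03).

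Few genes changed by a large factor. By both thresholds 14 genes were called, 7 higher and 7 lower with rescue (0.0851% of genes tested, 0.0426% in each direction). At an adjusted p below 0.05 with no fold threshold 294 genes rose (1.79%) and 1438 fell (8.74%). Small falls thus made up most of the list. The median change over all genes tested was -0.07, and after scaling it was -0.00. Scaling moved the split to 564 higher and 759 lower, and leaving out unrescued replicate 1 moved it to 371 and 3023. These counts over all genes are the background for each list count below at the same setting. Of the 1732 genes, 1606 passed in the same direction without that replicate and 1030 passed in the same direction after scaling. Of the 14 called genes, 10 were called without it and 11 after scaling.

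**Figure D2:**
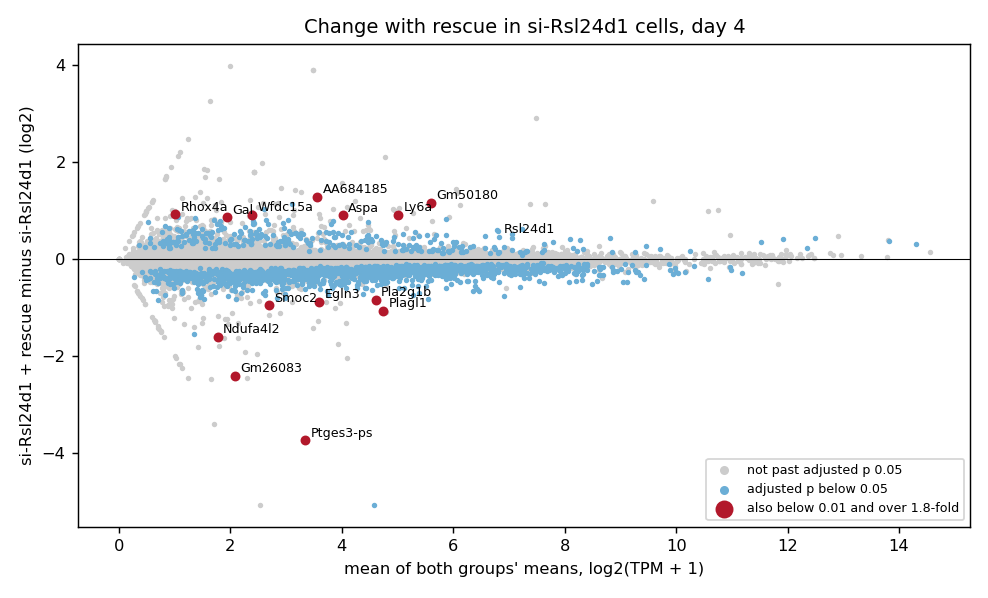
Change with rescue in si-Rsl24d1 cells at day 4 (log2, vertical) against the mean level of both groups (log2(TPM + 1), horizontal) for the 16447 genes tested. Red points mark the 14 genes past both thresholds, and most blue points, which passed an adjusted p of 0.05, lie below 0.

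Of the 7 genes called lower, 5 had levels above 0 in every library of both groups. Ndufa4l2 encodes a mitochondrial protein whose gene is switched on in hypoxia. It read 2.37, 2.86 and 2.49 without rescue and 1.01, 0.76 and 1.13 with rescue. It fell by 1.61 ± 0.14 (adjusted p = 1.08e-06), which is 5.19-fold in mean TPM, to a level under that of si-CTL cells (2.30, 1.83 and 2.15). Egln3, which encodes the oxygen-sensing prolyl hydroxylase PHD3, read 4.01, 4.07 and 4.03 without rescue and 3.15, 3.09 and 3.21 with it. It fell by 0.89 ± 0.10 (adjusted p = 1.84e-05), and its level in si-CTL cells was 3.73 to 4.16. For both genes the rescued si-Rsl24d1 libraries lay under all si-CTL libraries, whereas the unrescued ones overlapped with si-CTL for Egln3 and lay narrowly above it for Ndufa4l2. The nearest Ndufa4l2 libraries read 2.37 and 2.30, a gap in unscaled levels that was not checked after scaling. Ndufa4l2 lies on chromosome 10 at 127514967 to 127517154 and Egln3 on chromosome 12 at 54178981 to 54203860 (GRCm38).

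Plagl1, an imprinted gene for a zinc-finger transcription factor (chromosome 10, 13060504 to 13131694), showed another arrangement. Its levels were 5.13, 5.40 and 5.32 without rescue, 4.05, 4.32 and 4.26 with rescue and 2.98, 2.83 and 3.19 in si-CTL cells. It fell by 1.07 ± 0.12 (adjusted p = 1.53e-05) and remained between the unrescued and the control levels. Smoc2, which encodes a secreted calcium-binding matrix protein, was placed likewise, at 3.19, 3.26 and 3.05 without rescue, 2.24, 2.22 and 2.18 with it and 1.54 to 1.56 in si-CTL cells (-0.96 ± 0.07, adjusted p = 1.15e-07). Pla2g1b, the secreted phospholipase A2 of the pancreas, went from 5.04, 5.20 and 4.85 to 4.31, 4.14 and 4.09, beside 4.27 to 4.29 in si-CTL cells (-0.85 ± 0.07, adjusted p = 8.58e-07). The remaining pair of lower calls rested on libraries listed at 0. Ptges3-ps, a processed pseudogene that shares sequence with Ptges3, read 5.68, 5.09 and 4.88 without rescue and 4.42, 0 and 0 with it. Gm26083, annotated as a small Cajal body RNA, read 3.35, 3.06 and 3.44 and then 2.62, 0 and 0. Neither was called without unrescued replicate 1 (adjusted p = 1.32e-02 and 1.23e-02), and reads of a pseudogene cannot be separated with certainty from those of its parent gene. Pla2g1b missed the 1.8-fold threshold without that replicate (-0.84) and after scaling (-0.78), and Egln3 missed it after scaling (-0.82). With both changes together Smoc2 missed it as well (-0.84). In each of these cases the adjusted p stayed below 0.01 in limma.

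Of the 7 genes called higher, 5 had lower levels in every unrescued si-Rsl24d1 library than in every si-CTL library, a difference that was not tested. The calls rest on these same unrescued libraries, which favours low levels there. The share of all genes with that order was not counted. Ly6a, which encodes the surface protein Sca-1, read 4.65, 4.34 and 4.69 without rescue, 5.40, 5.42 and 5.58 with it and 6.14 to 6.33 in si-CTL cells. It rose by 0.91 ± 0.09 (adjusted p = 4.65e-06), 1.91-fold in mean TPM. Gal, the gene of the neuropeptide galanin, read 1.827, 1.404 and 1.314 without rescue and 2.45, 2.36 and 2.31 with it, beside 2.84 to 2.88 in si-CTL cells (0.86 ± 0.12, adjusted p = 9.43e-05). Rescue libraries of both genes lay between the unrescued libraries and the controls, without overlap.

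Aspa, which encodes the enzyme that splits N-acetylaspartate, read 3.56, 3.51 and 3.63 without rescue and 4.37, 4.45 and 4.57 with it (0.90 ± 0.10, adjusted p = 1.91e-05). Its rescued libraries overlapped with si-CTL cells, at 4.17 to 4.45. Wfdc15a, a small secreted protease-inhibitor-like protein, rose by 0.91 ± 0.19 (adjusted p = 4.01e-03), from 2.28, 1.94 and 1.58 to 2.83, 2.78 and 2.91. Rhox4a, a homeobox gene of the X-linked reproductive cluster that has near-identical copies, read 0, 0.50 and 1.14 and then 1.23, 1.54 and 1.61 (0.92 ± 0.21, adjusted p = 6.72e-03). It was not called without unrescued replicate 1 (0.64, adjusted p = 2.31e-02). The other 2 symbols, Gm50180 (1.15 ± 0.18) and AA684185 (1.27 ± 0.24), had higher mean levels in unrescued si-Rsl24d1 libraries than in si-CTL libraries and higher ones again with rescue. AA684185 read 1.59 to 2.58 in si-CTL cells, 2.79 to 3.09 without rescue and 4.14 to 4.29 with rescue.

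**Figure D3:**
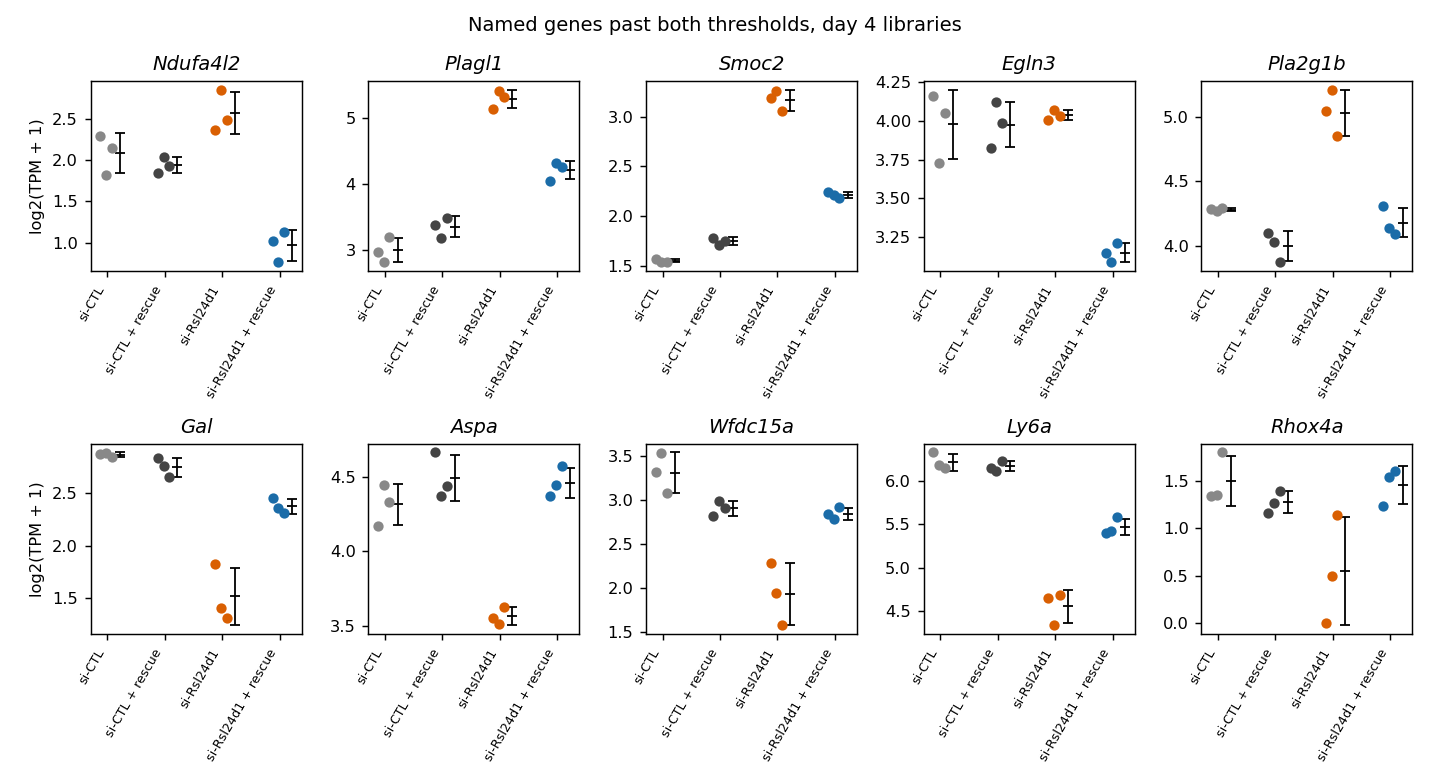
Levels, log2(TPM + 1), of 10 of the 14 called genes in the 12 day 4 libraries (points; bars, mean ± SD of 3). The upper row was lower with rescue in si-Rsl24d1 cells and the lower row higher, and absence of overlap between these groups was one of the conditions for a gene to be shown.

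Genes of the contractile and mesenchymal list, which like the others was chosen with earlier results of these data known, had the largest share of falls among the lists set at the start. Of 20 members tested, 15 fell and 0 rose, with a median change of -0.42 against -0.07 over all genes (13 fell after scaling and 17 without unrescued replicate 1). Tagln, an actin-bundling protein of smooth muscle, read 9.29, 9.34 and 9.21 without rescue and 8.81, 8.75 and 8.85 with it (-0.48 ± 0.05, adjusted p = 6.34e-06). Tpm2, a tropomyosin, went from 6.65, 6.64 and 6.55 to 6.13, 6.17 and 6.18 (-0.45 ± 0.04, adjusted p = 2.89e-06), and Vim, the mesenchymal intermediate filament, from 8.61, 8.88 and 8.75 to 8.19, 8.24 and 8.23 (-0.53 ± 0.06, adjusted p = 9.48e-06). In each of the 3 genes the lowest unrescued library lay above the highest rescued one, as in 18.6% of all genes tested. The list mean was 6.55 to 6.79 without rescue, 6.27 to 6.32 with it and 5.80 to 5.89 in si-CTL cells. Fewer cells of a type and less RNA per cell cannot be told apart in these bulk libraries.

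The mesoderm list holds mostly transcription factors, with the receptor gene Kdr and the ligand gene Bmp4. Of 17 tested, 6 fell and 0 rose (4 after scaling, 6 without unrescued replicate 1), with a median of -0.19. The list mean was 2.02 to 2.09 without rescue, 1.79 to 1.82 with it and 1.52 to 1.59 in si-CTL cells. Msx2, a homeobox factor, read 2.716, 2.696 and 2.716 and then 2.14, 2.31 and 2.15 (-0.51 ± 0.07, adjusted p = 1.01e-04). Snai2, a repressor of epithelial genes, changed by -0.53 ± 0.09 (adjusted p = 7.91e-04) and Twist1, a basic helix-loop-helix factor of mesenchyme, by -0.57 ± 0.10 (adjusted p = 1.23e-03). Collagen and laminin chains, a list put together after values were seen, showed 8 lower and 0 higher of 39 tested, among them Col4a5 (-0.65 ± 0.08). This count depended on 1 library, with 18 lower when unrescued replicate 1 was left out and 3 lower without unrescued replicate 2. After scaling 7 were lower and 1 higher.

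The RA pathway was lower with rescue in part. Of 20 members tested 7 fell and 0 rose, with a median change of -0.19 (5 fell after scaling, 9 without unrescued replicate 1). Of the receptors, Rarb read 1.18, 1.19 and 1.33 without rescue and 0.68, 0.66 and 0.79 with it, which is 2.13-fold in mean TPM (-0.52 ± 0.09, adjusted p = 1.27e-03). Its level in si-CTL cells averaged 0.43. Rarg fell by 0.28 ± 0.05 (adjusted p = 1.29e-03), and Rara changed by -0.22, which did not pass. Crabp2, a carrier that hands RA to the receptors, fell by 0.33 ± 0.07 (adjusted p = 6.67e-03). Cyp26a1, the enzyme that degrades RA, fell by 0.38 ± 0.12 (adjusted p = 4.42e-02). After scaling neither Crabp2 (-0.26, adjusted p = 1.14e-01) nor Cyp26a1 (-0.33, adjusted p = 1.08e-01) passed in limma. Meis1, a transcription factor downstream of RA, passed too (-0.35 ± 0.09). Of the 20 genes tested 13 did not pass, and these lay between -0.27 (Cdx1) and 0.15 (Cyp26b1). Hoxb1 and Rai2 were under the filter.

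The promoters of Rarb and Cyp26a1 are shown because, of the 14 tested RA genes with a RefSeq promoter window, these 2 hold a classical RA response element. It was searched as a direct repeat of 2 sites 5 bases apart, each site spelled AGGTCA or AGTTCA or GGGTCA or GGTTCA, on both strands. Only 32 of 32851 windows of the same length hold one (0.0974%). Each window runs from 250 bases before the start to 50 after it (RefSeq, GRCm38.p6), on the strand of the gene. Capitals mark both sites of the repeat.
Rarb, chr14:16575427-16575726, minus strand: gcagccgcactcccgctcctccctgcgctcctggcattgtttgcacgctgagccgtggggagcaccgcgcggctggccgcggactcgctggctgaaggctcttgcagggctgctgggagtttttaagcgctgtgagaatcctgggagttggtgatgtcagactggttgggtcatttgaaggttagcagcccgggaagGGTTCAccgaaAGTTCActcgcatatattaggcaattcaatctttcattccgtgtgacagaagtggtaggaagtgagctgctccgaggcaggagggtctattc
Cyp26a1, chr19:37697558-37697857, plus strand: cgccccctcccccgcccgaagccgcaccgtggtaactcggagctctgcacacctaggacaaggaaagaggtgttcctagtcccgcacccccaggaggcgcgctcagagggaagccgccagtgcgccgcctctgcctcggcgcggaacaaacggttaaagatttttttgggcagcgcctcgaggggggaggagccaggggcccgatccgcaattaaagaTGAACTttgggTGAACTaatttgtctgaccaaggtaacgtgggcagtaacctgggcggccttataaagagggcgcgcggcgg
In Rarb the element spans -53 to -37 and reads along the gene. In Cyp26a1 it spans -32 to -16 and reads on the opposite strand, so the capitals show its complement. A match is a description of letters, not of binding.

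Hox genes, the homeobox genes of body-axis position, were mostly too low to test. Of 39 genes 10 passed the filter, 4 fell and 1 rose (3 and 1 after scaling, 5 and 0 without unrescued replicate 1, 2 and 0 without replicate 2). Hoxb9 read 1.73, 1.87 and 1.73 without rescue and 1.22, 1.09 and 0.88 with it (-0.71 ± 0.11, adjusted p = 2.86e-04). Hoxa5 changed by -0.38 ± 0.09 and Hoxb4 by -0.31 ± 0.08, and Hoxb4 did not pass after scaling (adjusted p = 7.04e-02). Hoxc13 rose by 0.24 ± 0.08 from levels of 0.44 to 0.57 (adjusted p = 4.75e-02), and it did not pass in 11 of 14 alternative analyses. The 5 tested Hox genes that did not pass lay between -0.16 and 0.12.

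Imprinted genes fell beyond Plagl1. Of 17 tested, Plagl1 included, 6 fell and 0 rose, with a median of -0.23 (6 after scaling, 10 without unrescued replicate 1). Dlk1, a Notch-like ligand of fetal tissue, read 6.82, 6.85 and 6.71 without rescue and 6.06, 6.19 and 6.15 with it, beside a mean of 6.03 in si-CTL cells (-0.66 ± 0.06, adjusted p = 1.49e-06). Mest, an enzyme of mesoderm, read 7.79, 7.98 and 7.87 and then 7.36, 7.41 and 7.40 (-0.49 ± 0.05), and Phlda2, a growth-limiting gene of the placenta, 5.83, 5.65 and 5.50 and then 5.05, 4.98 and 4.68 (-0.75 ± 0.08). None of the 3 overlapped between groups, beside 18.6% of all genes with rescued libraries all below.

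Genes of glycolysis and hypoxia and of sterol synthesis were listed after Ndufa4l2 and Egln3 had been seen, so their counts describe these libraries and do not test a prior list. Of 32 glycolysis and hypoxia genes, Ndufa4l2 included, 22 fell and 0 rose, with a median of -0.30 (18 fell after scaling, 25 without unrescued replicate 1). Pgam1, a glycolytic enzyme, read 8.56, 8.48 and 8.53 and then 8.10, 8.04 and 8.11 (-0.44 ± 0.04, adjusted p = 4.49e-06). Aldoc, a second glycolytic enzyme, fell by 0.72 ± 0.08 (adjusted p = 1.62e-05). The list mean was 6.72 to 6.85 without rescue, 6.35 to 6.45 with it and 6.68 to 6.85 in the si-CTL controls. Thus the rescued si-Rsl24d1 libraries lay under the other 3 day 4 groups.

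Of 25 sterol synthesis genes 15 fell and 0 rose, with a median of -0.30 (15 after scaling, 22 without unrescued replicate 1 and 9 without unrescued replicate 2). Insig1, the sterol-sensing regulator of the pathway, read 5.64, 5.94 and 5.77 and then 5.24, 5.18 and 5.26 (-0.56 ± 0.07, adjusted p = 8.42e-05). The enzymes Fdps (-0.40 ± 0.05) and Msmo1 (-0.45 ± 0.05) fell too. In si-CTL cells the list mean was 4.77 to 4.91, which overlapped with the single unrescued library that stood apart (4.88) and lay above the rescued ones (4.68 to 4.76). These means are unscaled, so the place of the unrescued libraries relative to si-CTL includes the offset between libraries.

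**Figure D4:**
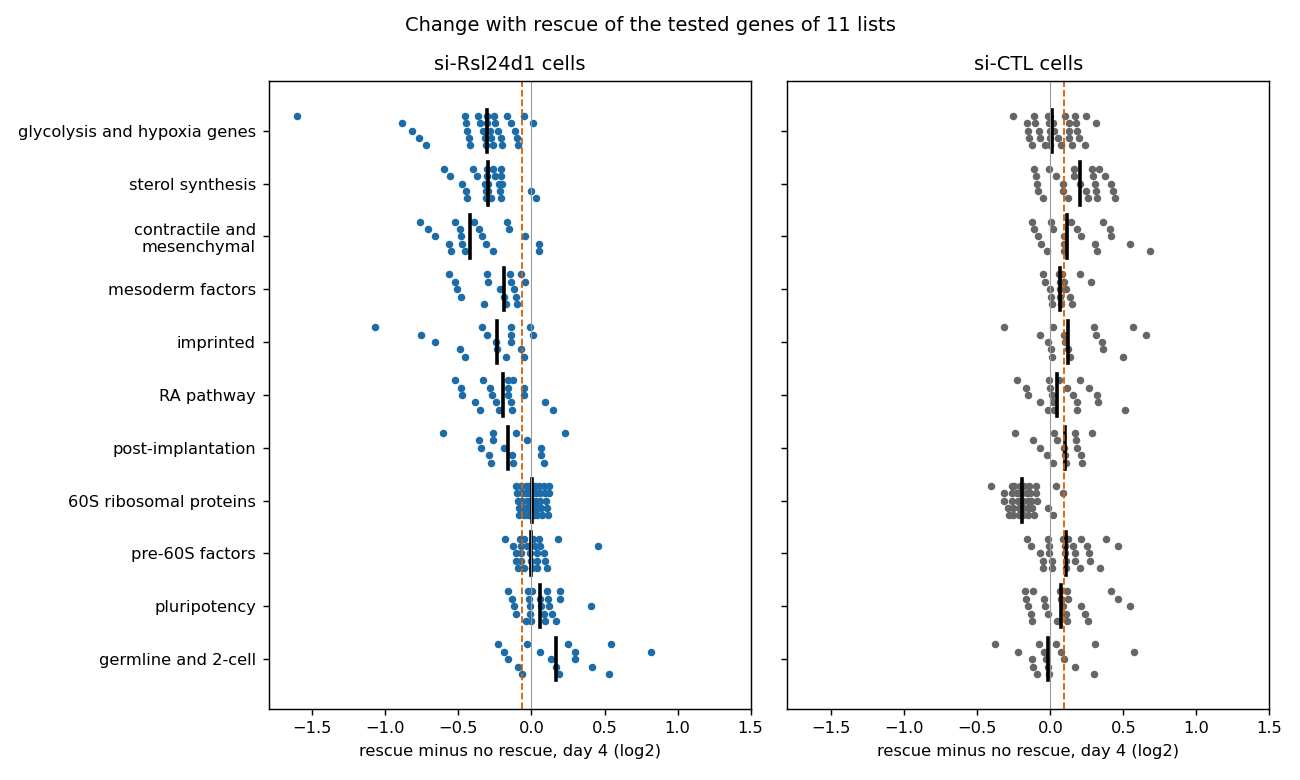
Change with rescue at day 4 (log2) of the tested genes of 11 lists (points; black bars, list medians) for si-Rsl24d1 (left) and for si-CTL (right). The dashed orange line is the median of all genes, -0.07 on the left and 0.09 on the right, and on the left the glycolysis, sterol and contractile medians lie at -0.30, -0.30 and -0.42.

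The pluripotency network moved little. Of 23 genes tested 2 rose and 0 fell, and the median change was 0.06 (6 rose after scaling, 2 without unrescued replicate 1). Dppa3, a maternal factor also known as Stella, read 8.06, 7.70 and 7.90 without rescue and 8.30, 8.27 and 8.32 with it (0.41 ± 0.06, adjusted p = 3.51e-04). Nanog read 8.17, 8.22 and 8.28 and then 8.44, 8.42 and 8.39 (0.20 ± 0.04, adjusted p = 2.06e-03). Pou5f1 (-0.01), Sox2 (-0.04) and Klf4 (0.00) did not pass, and Pou5f1 stood at 8.96 to 9.02 in all 6 libraries, so transcripts that define ESCs were abundant at day 4. Among 16 post-implantation genes 4 fell and 0 rose (3 after scaling, 8 without unrescued replicate 1, 2 without replicate 2 or 3). Lefty1, an inhibitor of Nodal, read 6.21, 6.12 and 6.17 and then 5.61, 5.50 and 5.56 (-0.61 ± 0.05, adjusted p = 2.52e-07), and Tdgf1, the Nodal co-receptor, changed by -0.27 ± 0.03 (adjusted p = 6.85e-05).

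Markers of other cell types that an RA culture may hold changed in few members. Of 13 neural genes 2 fell, of 19 endoderm genes 3 fell (Apoe, Plat and Sparc) and of 11 trophectoderm genes 3 fell, Cdx2 among them, and none rose. Over all genes tested 8.74% fell and 1.79% rose. Without unrescued replicate 1 the falls in these lists were 3, 11 and 5, beside 3023 over all genes. Without unrescued replicate 2 they were 1, 3 and 1, beside 728 over all genes. After scaling they were 1, 4 and 2, and 1 neural gene rose. The mean of the endoderm list was 3.53 to 3.85 without rescue, 3.45 to 3.57 with it and 2.99 to 3.14 in si-CTL cells, so the first 2 groups overlapped. The neural mean was 2.57 to 2.76, 2.56 to 2.60 and 2.39 to 2.43 in the same order, and the trophectoderm mean 4.00 to 4.26, 3.93 to 4.01 and 3.52 to 3.65. Their part in the other results was not tested.

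Genes of the large subunit itself showed small differences at the RNA level. Of 47 60S ribosomal protein genes 0 passed in either direction, with changes from -0.11 to 0.12. Leaving out unrescued replicate 1 gave 6 higher and 0 lower. Of 32 40S genes only Rps2 fell (-0.23 ± 0.05). After scaling Rps2 did not pass (-0.15, adjusted p = 2.51e-01) and no 40S gene did, and without unrescued replicate 1, 3 rose and 1 fell. Of 27 factors of pre-60S assembly, Rsl24d1 and Ebna1bp2 (0.18 ± 0.04) rose, whereas Sbds (-0.18 ± 0.04) and Ppan (-0.13 ± 0.03) fell. Over all genes tested 1.79% rose and 8.74% fell. Sbds encodes the factor that helps to release EIF6 from late 60S particles. After scaling, 5 of the list rose and 0 fell, and without unrescued replicate 1, 2 rose and 3 fell.

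The germline and mitochondrially encoded lists pointed upwards, and the ATF4 targets were evenly split before scaling. In the germline and 2-cell list 5 of 17 rose and 1 fell (8 and 0 after scaling, 7 and 0 without unrescued replicate 1), led by Dazl, an RNA-binding protein of germ cells, which read 5.39, 5.49 and 5.52 and then 6.37, 6.19 and 6.30 (0.82 ± 0.10, adjusted p = 2.93e-05). Zscan4d, a gene of 2-cell-like cells with near-identical copies, rose by 0.53 ± 0.09 (adjusted p = 8.35e-04). Of 13 mitochondrially encoded genes 5 rose (5 after scaling, and 4 with 1 lower without unrescued replicate 1), mt-Cytb by 0.44 ± 0.07. Mitochondrial transcripts took 7.01%, 7.89% and 8.57% of the TPM without rescue and 8.79% to 9.29% with it. Among 33 ATF4 targets 3 rose and 3 fell (Ddit4, Vldlr and Atf3). After scaling 9 rose and 1 fell, and without unrescued replicate 1, 3 rose and 2 fell. Asns, asparagine synthetase, rose by 0.44 ± 0.07 (adjusted p = 3.93e-04) and Pck2, a mitochondrial enzyme of gluconeogenesis, by 0.50 ± 0.11 (adjusted p = 5.28e-03).

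Growth control genes fell in part. Of 23 cell cycle genes 9 fell and 0 rose (6 with 1 higher after scaling, 13 without unrescued replicate 1, 5 without replicate 2 or 3, and 5 without rescued replicate 2 or 3). They include Myc, which read 3.16, 3.39 and 3.36 without rescue and 2.83, 2.87 and 2.75 with it (-0.48 ± 0.07, adjusted p = 2.14e-04), and the cyclin genes Ccne1 (-0.35 ± 0.05) and Ccnd3 (-0.33 ± 0.04). The replication and division genes Pcna (0.08 after scaling) and Cdk1 (0.09 after scaling) did not pass with or without scaling. The list holds inhibitors of the cycle as well, so its count does not measure proliferation, which was not tested. Of 24 Polycomb genes 4 fell (4 after scaling, 8 without unrescued replicate 1, 2 without replicate 2), with Cbx7 the most clearly by adjusted p, and of 9 mitochondrial stress genes 1 fell (Dnaja3). Over all genes tested 8.74% fell, and 3023 genes fell without unrescued replicate 1. Of 10 short non-coding RNAs 0 passed, also after scaling and without that replicate.

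**Figure D5:**
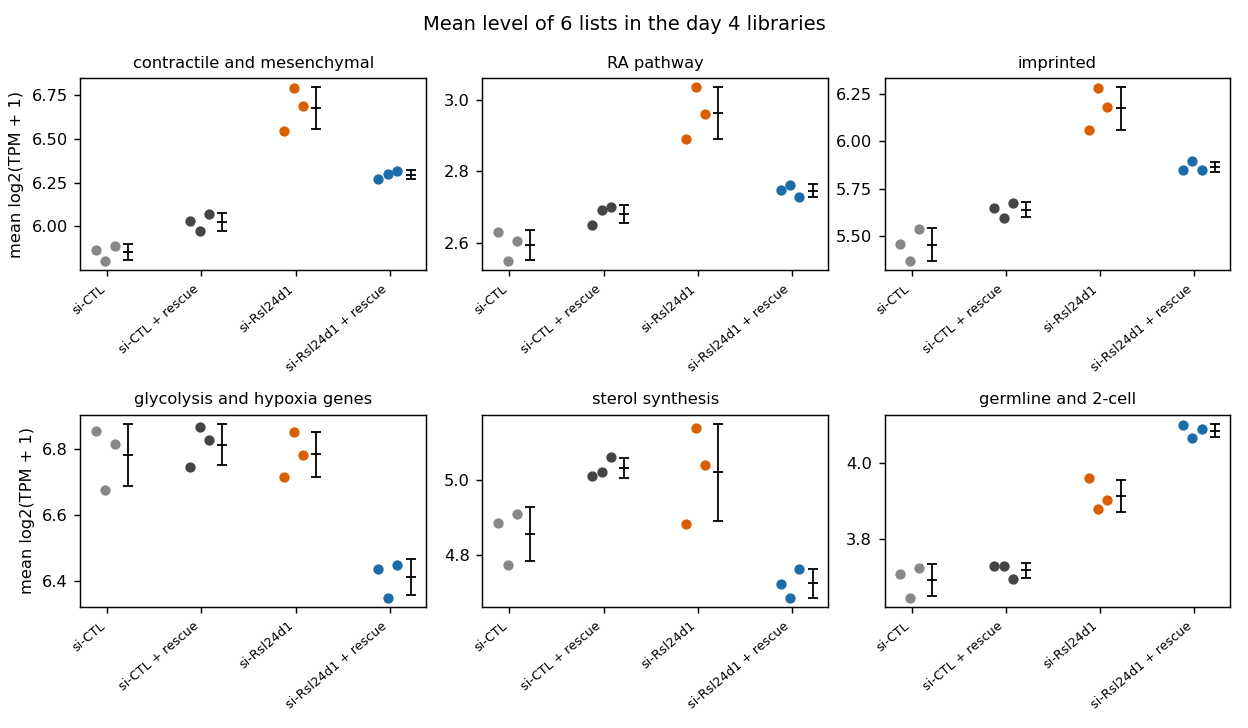
Mean unscaled level, log2(TPM + 1), of the tested genes of 6 lists in each of the 12 day 4 libraries (points; bars, mean ± SD of 3). The contractile, RA and imprinted means run in the order si-CTL, rescued, unrescued, whereas the glycolysis and hypoxia mean of the rescued si-Rsl24d1 libraries (6.35 to 6.45) lies under all others.

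The same induction in si-CTL cells gave partly other changes. There, 9 genes were called (0.0547%), 6 higher (0.0365%) and 3 lower (0.0182%). At an adjusted p below 0.05, 3629 rose (22.1%) and 698 fell (4.24%), and the median of all genes was 0.09. After scaling 2029 rose and 2111 fell, so the excess of rises did not hold. In these cells the contractile list counted 8 higher and 1 lower, the sterol list 12 and 0, and 30 of 47 60S ribosomal protein genes fell. After scaling these counts were 5 and 3, 8 and 4, and 36. The rise of mitochondrially encoded genes was shared, with 6 of 13 higher and 0 lower in si-CTL cells (5 and 0 after scaling). Mitochondrial transcripts took 6.42% to 6.81% of the TPM in si-CTL cells without rescue and 7.86% to 9.36% with it.

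The rescue effect was therefore compared between siRNAs as a difference of differences. By both thresholds 84 genes were called (0.511%), 16 higher (0.0973%) and 68 lower (0.413%) in si-Rsl24d1 cells relative to si-CTL cells. At an adjusted p below 0.05 the shares were 2.74% higher and 26% lower. After scaling 47 genes were called, 31 higher and 16 lower, and at 0.05 there were 1380 higher and 1462 lower, so the excess of lower genes did not hold. The most significant gene was Smoc2 (-1.15 ± 0.10, adjusted p = 3.47e-06). Cdh11, a mesenchymal cadherin, read 2.37, 2.60 and 2.57 without rescue and 1.59, 1.81 and 1.69 with it in si-Rsl24d1 cells, beside 0.80, 0.89 and 0.88 and then 1.22, 1.31 and 1.11 with the control siRNA. Its difference was -1.18 ± 0.10 (adjusted p = 5.28e-06). Cpe, which encodes carboxypeptidase E, fell by 0.82 ± 0.06 in si-Rsl24d1 cells and changed by 0.03 in si-CTL cells (difference -0.85 ± 0.08, adjusted p = 7.56e-06). By list, 17 of 20 contractile genes differed in the lower direction (0 higher), 9 of 20 RA genes, 19 of 25 sterol genes and 24 of 32 glycolysis and hypoxia genes. After scaling these counts were 9, 4, 14 and 10, with 1 contractile and 1 glycolysis gene in the higher direction, beside 1462 lower of all 16447 genes. The sterol and glycolysis lists were made after changes in si-Rsl24d1 cells had been seen, and those changes are part of this difference. Their counts here are thus no separate support. Ribosomal protein genes differed in the higher direction, 16 of 47 of the 60S and 11 of 32 of the 40S subunit (26 and 20 after scaling), with 0 lower. Rarb differed under both scalings (-0.68 ± 0.13, adjusted p = 2.97e-03, and after scaling -0.59, adjusted p = 8.35e-03), and Tagln did so without scaling alone (adjusted p = 6.59e-04, and 5.44e-02 after scaling). Rarb and Tagln were named for their small adjusted p in si-Rsl24d1 cells, which is part of this difference, so this choice favoured passing.

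The rescue effect also differed between day 4 and day 0 of si-Rsl24d1 cells. By both thresholds 115 genes were called (0.699%), 89 more positive (0.541%) and 26 more negative (0.158%) at day 4. At an adjusted p below 0.05 the shares were 6.11% and 5.87%. In the day 0 comparison itself 992 genes rose (6.03%) and 4085 fell (24.8%), and after scaling 2511 rose and 2148 fell. The p53 targets were among the lists that differed most in count. At day 0, 20 of 23 fell with rescue (19 after scaling), with a median of -0.65, and at day 4, 6 fell with a median of -0.07 (9 without unrescued replicate 1, 2 without replicate 2 or 3, and 4 with 1 higher after scaling). The difference was positive for 16 of the 23 (15 after scaling). Cdkn1a, the cell cycle inhibitor p21, changed by -0.52 ± 0.05 at day 0 and by -0.26 ± 0.05 at day 4 (difference 0.26 ± 0.07, adjusted p = 1.38e-02). Perp, a p53 target of cell adhesion, changed by -0.74 and then by -0.24 (difference 0.51 ± 0.08, adjusted p = 2.61e-04).

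Other genes turned direction between the days. Anxa8, an annexin, fell by 0.56 ± 0.06 at day 0 and rose by 0.80 ± 0.06 at day 4, where it read 2.28, 2.24 and 2.20 without rescue and 3.06, 2.94 and 3.11 with it (difference 1.36 ± 0.09, adjusted p = 3.70e-08). Aldoc rose by 0.47 ± 0.08 at day 0 and fell by 0.72 ± 0.08 at day 4 (difference -1.19 ± 0.12, adjusted p = 2.28e-06). Fdps rose by 0.36 and fell by 0.40 (difference -0.76 ± 0.07, adjusted p = 1.13e-06). Dazl fell by 0.26 and rose by 0.82 (difference 1.08 ± 0.14, adjusted p = 4.43e-05), and after scaling its day 0 change of -0.14 did not pass. Aldoc, Fdps and Dazl were named for their small adjusted p at day 4, which is part of the difference, so this choice favoured passing. Of the glycolysis and hypoxia list 19 of 32 were more negative at day 4 (22 after scaling) and of the sterol list 13 of 25 (19 after scaling). At day 0, 9 genes of the first list rose and 3 fell (16 and 2 after scaling), and 8 of the second rose and 0 fell (17 and 0). Both lists were made after day 4 values had been seen, so their counts in the difference between days are no separate support.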

How the data were processed

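RNA-seq libraries of CGR8 cells were grouped by their labels, 3 in each of 8 groups. The authors quantified reads with Salmon and deposited log2(TPM + 1) for each gene symbol. The study's methods name Salmon 0.14.1 with GRCm38 and the labels name Salmon 1.4.0, STAR 2.7.8a and GRCh38, and a stranded total RNA kit in the former is a poly-A kit in the latter. Neither conflict could be settled, and poly-A selection bears on short RNAs. Here, limma 3.58.1 in R 4.3.3 was fitted on the deposited log2 values (8 group means, empirical Bayes with intensity trend, all 24 libraries), for genes with a mean of at least 0.5, with two-sided tests and Benjamini-Hochberg adjustment over all 16447 genes within each comparison. The script was tested on simulated data. The thresholds of 0.01 and 1.8-fold follow the methods of the study, whose own count-based test could not be run without counts. Genes were named by a rule: Rsl24d1, up to 10 called genes in each direction without overlap between groups (predicted genes and pseudogenes by name only where fewer than 10 remained), up to 3 genes in each direction by adjusted p in each list, 3 per difference of differences, and any member of the Hox, RA, pluripotency and pre-60S lists. Some list members are counted but not reported here by name. Members and lists were chosen with earlier results of these data known. Coordinates are from gencode vM21 by symbol, and 1983 symbols had no match. Figures were drawn with matplotlib and the exact test was run with scipy. Alternatives covered the amount added to TPM (0.1 and 2), filters, libraries in the fit, median-of-ratios scaling computed on TPM, a replicate block, the trend, thresholds and leaving out each library.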

Additional observations from a re-analysis of the deposited data

Results flagged for a closer look

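The rescue effect at day 4 differed between siRNAs for 84 genes. Of the genes named above this held for Ndufa4l2 (-1.46), Plagl1 (-1.43), Smoc2 (-1.15), Egln3 (-0.89), Cdh11 (-1.18) and Cpe (-0.85), which were more negative in si-Rsl24d1 cells. It also held for Gal (0.98), Wfdc15a (1.32) and Ly6a (0.96), which were more positive. After scaling the difference stayed past an adjusted p of 0.01 in limma for each of these 9 genes. Cdh11 and Cpe were named for their small adjusted p in this difference. The others were called in the rescue comparison, which is part of it. Their passing was thus favoured by how they were chosen and is no separate support.

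The effect in si-Rsl24d1 cells differed between day 4 and day 0 for 115 genes. Named among them were Rsl24d1 (-1.10), Ndufa4l2 (-1.58), Smoc2 (-0.93), Egln3 (-1.02) and Pla2g1b (-1.09), which were more negative at day 4. Gal (1.10), Anxa8 (1.36), Gm48764 (1.49) and Gm47404 (1.43) were more positive at day 4. The last 2 symbols fell with rescue at day 0, by 1.01 and 0.98, and rose at day 4, by 0.48 and 0.45. Smoc2 averaged 0.19 without rescue at day 0. Here too the choice favoured passing. Anxa8, Gm48764 and Gm47404 were named for their small adjusted p in this difference. Ndufa4l2, Smoc2, Egln3, Pla2g1b and Gal were called in the day 4 comparison that is part of it.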

How the results depend on the processing

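The 14 calls became 41 with 0.1 added to TPM, 8 with 2 added, 7 with only the groups compared, 850 without a fold threshold, 1732 at an adjusted p below 0.05 without one, and 24 (22 higher and 2 lower) with scaling and without unrescued replicate 1 together, an alternative chosen after seeing the data. Leaving out 1 library gave 9 (unrescued replicate 2) to 22 (unrescued replicate 1), and the count at 0.05 ran from 922 to 3394 for the same libraries, with 1137 without unrescued replicate 3 and 1088 and 1095 without rescued replicates 2 and 3. With only the groups compared it was 250. Rsl24d1 passed 0.01 in every alternative but that last one (adjusted p = 2.22e-02, change 0.46). In si-CTL cells the 9 calls became 34 with 0.1 added, 2 without a filter, 5 with day 4 libraries only, 1677 without a fold threshold and 4327 at 0.05, and 1 to 29 with 1 library left out. Differences between siRNAs numbered 158 with 0.1 added, 54 with 2 added, 54 with only the groups compared or day 4 libraries, 47 after scaling, 1472 without a fold threshold and 4723 at 0.05, and 42 (without unrescued si-Rsl24d1 replicate 2) to 289 (without replicate 1), with 132 without si-CTL unrescued replicate 3. Differences between days numbered 67 with 2 added, 961 without a fold threshold and 1971 at 0.05, and 103 to 130 with 1 library left out. Of 1231 alternative values for 83 named genes, 1098 kept direction and side of the threshold, 133 in 42 genes kept direction only, and 0 reversed. The causes were not tested. Same-numbered libraries did not deviate together (correlations -0.09, -0.06 and -0.06), so the numbers pair nothing, and a replicate block gave 13 calls, 1554 at 0.05, 7 in si-CTL cells, 71 between siRNAs and 111 between days. Depth is unknown, so no limit can be set for genes listed at 0.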
